A study of Dicentrarchus labrax with 16 samples.

Results

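The regions described here are 891 short runs of CpGs that were more methylated in testis than in muscle in every one of 3 European sea bass (Dicentrarchus labrax). They were drawn from 20603 runs of 5 to 14 CpGs on the 24 linkage groups (LGs) of genome build dicLab v1.0c, of which they made up 4.32%. A run joined CpGs up to 100 bp apart that were read at least 10 times on a strand in all 6 libraries. Its level was the mean of the methylation percentages of its CpGs. A run was a member when the level in testis exceeded that in muscle of the same fish by 10 percentage points or more in all 3 fish and by 20 points or more on average. These limits used the methylation of all 6 libraries, so the levels and differences of the members are a description and carry no test. The members are called testis-high runs below. The same limits in the other direction gave 349 muscle-high runs (1.69% of the runs).

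The samples were muscle and testis of wild adult fish caught by speargun outside the reproductive season, with no treatment, and the same 3 fish gave both tissues, so the groups were muscle (n = 3 libraries) and testis (n = 3). Methylation was measured by reduced representation bisulfite sequencing (RRBS), in which DNA is cut at CCGG and unmodified cytosines are read as T after bisulfite. The labels give no age and no strain. Both tissues were taken whole, so a shift in the cell types present and a shift within a cell type cannot be told apart, and the tissue labels were not checked against marker genes here.

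In vertebrates, methyl groups are placed on the cytosine of CpG dinucleotides, and most CpGs are methylated apart from those in CpG-rich stretches such as many promoters. Maintenance methyltransferases copy the marks at each cell division, whereas TET enzymes oxidise them and so start their removal. Regions whose methylation differs between tissues are often found at enhancers and at promoters of tissue-specific genes. A testis holds germ cells at several stages beside somatic cells, while skeletal muscle is made of long multinucleate fibres with other cell types between them. Gene positions and base sequences of the runs were not used here, so the runs are given by position alone.

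The muscle libraries listed 961700 to 1149189 cytosines and the testis libraries 1179764 to 1266961. In testis-high runs the median of the mean reads per CpG was 69.1, 189.6 and 72.1 in muscle 1, 2 and 3 and 93.2, 157.2 and 129.0 in testis 1, 2 and 3, and over all runs it was 65.6 to 181.5 in muscle and 92.5 to 148.6 in testis. Reads carry no molecular identifier, so they need not stand for separate molecules. At exactly 0 or 100% stood 50.1%, 31.5% and 51.3% of the CpGs of the linkage groups in muscle 1, 2 and 3, and 19.1% to 22.9% in testis.

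Testis-high runs were for the most part highly methylated in testis and half-way methylated in muscle. Their median level was 46.3%, 54.4% and 57.7% in muscle 1, 2 and 3. In testis 1, 2 and 3 it was 89.3%, 88.4% and 89.2%. The means of these medians were 52.8% ± 5.88 in muscle and 88.9% ± 0.50 in testis (SD, n = 3 libraries). The testis libraries thus lay close together and the muscle libraries spread over more than 10 points. Over all 20603 runs the library medians were 73.7% ± 2.18 in muscle and 82.8% ± 0.56 in testis. The median difference of the members, testis minus muscle, was 37.5 points in fish 1, 29.4 in fish 2 and 27.5 in fish 3. Fish 1 showed the largest of the 3 differences in 486 members (54.5%), against 36.7% of all runs. Muscle 1 was the lowest of the muscle libraries in 465 members (52.2%), against 37.7% of all runs.

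**Figure D1:**
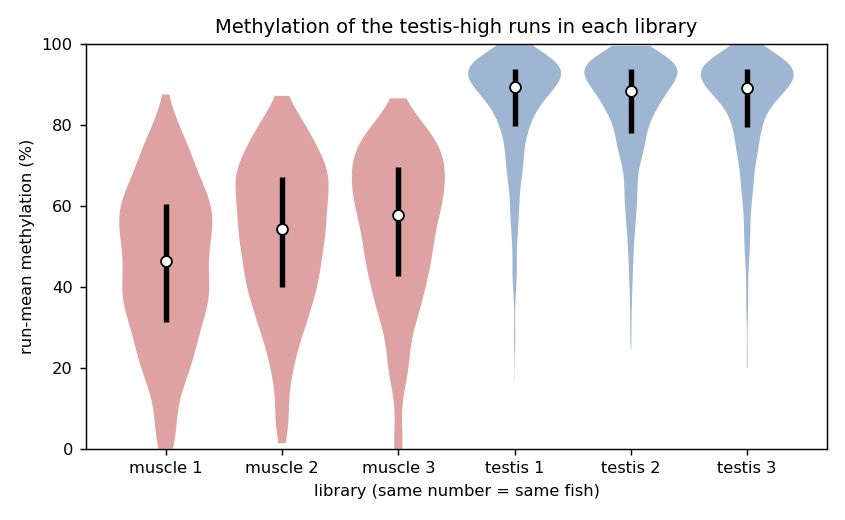
Run-mean methylation (percent, y axis) of the 891 testis-high runs in each of the 6 libraries (x axis); shapes show the distribution over runs, dots the median and bars the quartiles. The testis medians sit between 88.4% and 89.3%, and the muscle medians between 46.3% and 57.7%.

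Most single CpGs of these runs were also intermediate in muscle and high in testis. Of the 5862 CpGs in testis-high runs, 61.4%, 73.5% and 63.6% lay between 20 and 80% methylation in muscle 1, 2 and 3. In muscle, 11.5% to 23.7% of them lay under 20% and 14.9% to 22.1% over 80%. In testis, 72.6% to 74.8% of these CpGs lay over 80%, 24.5% to 26.6% between 20 and 80%, and under 1% below 20%. Over all CpGs of the linkage groups, 22.0% to 23.6% lay between 20 and 80% in muscle and 17.4% to 17.7% in testis. In 794 members (89.1%) every CpG was higher in testis on average over the fish, and in 227 (25.5%) every CpG was higher in testis in each of the 3 fish, against 15.4% and 1.55% of all runs. Nothing is read from these counts, which rest on the values that chose the runs. The logistic regression on tissue fitted to all 475516 CpGs covered in the 6 libraries called 11.7% of them hyper-methylated in testis. Within testis-high runs it called 5020 of the 5862 CpGs (85.6%) in that direction and 5 in the other, which follows from how the runs were chosen.

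The members fell into 3 classes by their level in muscle. Those at 50% or more in muscle numbered 491 (55.1%), with medians of 62.1% in muscle and 92.2% in testis, and 472 of them (96.1%) exceeded 80% in testis. Those from 20 to under 50% numbered 371 (41.6%), with medians of 39.6% and 80.5% and the largest median difference of the classes, 40.2 points. In this class the median level was 32.6%, 39.9% and 44.3% in muscle 1, 2 and 3 and 81.2%, 79.8% and 81.6% in testis 1, 2 and 3. The third class, under 20% in muscle, held 29 members (3.25%), with medians of 10.8% and 44.6%. Runs at 20 to under 50% in muscle were few in all (1142 of 20603), and 32.5% of them were testis-high. Of the 6738 runs under 20% in muscle, 0.43% were testis-high, and of the 12723 runs at 50% or more, 3.86%. A run above 80% in muscle has no room for 20 points, and no member exceeded 77.7%. The upper quartile of all runs in muscle was 89.9%, so many runs of this last class could not be members. Nothing is read from the contrast of these shares.

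Levels under 20% in muscle with levels over 80% in testis were rare, among members as over all runs. Only 2 of the 891 members, on LG19 and LG2, averaged under 20% in muscle and over 80% in testis. In 6 others, muscle lay under 20% and testis between 50 and 80%, and in 21 muscle lay under 20% and testis under 50%. Over all 20603 runs these classes held 2, 6 and 6730 runs, the last being 32.7% of runs against 2.36% of members. In 15 members (1.68%) all 3 muscle libraries were under 20%, against 31.6% of all runs. Runs under 20% in both tissues cannot meet the limit of 20 points, so nothing is read from these shares. By contrast, in 657 members (73.7%) all 3 muscle libraries lay between 20 and 80%, against 11.4% of all runs. The rule needs room above the level in muscle, and its part in this share was not tested. In 573 members (64.3%) all 3 testis libraries exceeded 80%, against 48.5% of all runs. In 287 (32.2%) they all exceeded 90%, the same share as over all runs (32.2%). The lowest testis library lay above the highest muscle library in 873 members (98.0%), where the background over all runs was 23.0%. The rule fixes most of this count, so nothing is read from it.

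**Figure D2:**
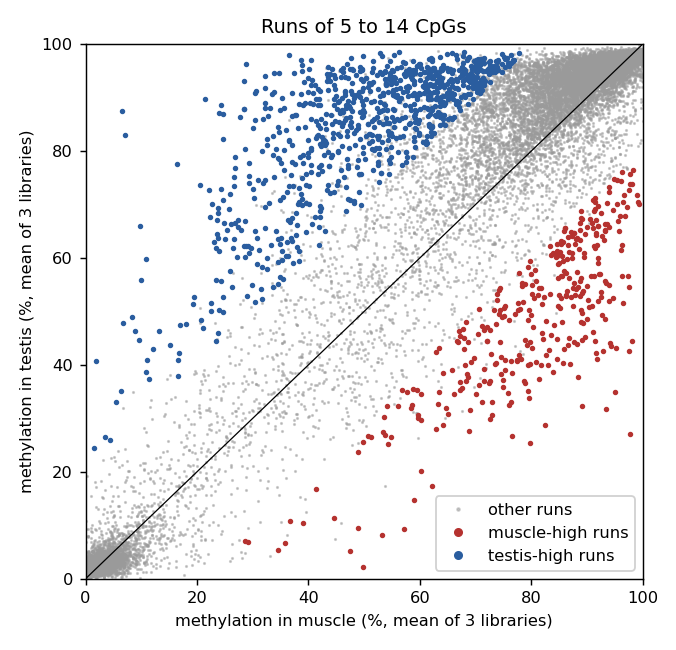
Methylation in testis (y axis) against muscle (x axis), each the mean of 3 libraries in percent, for the 20603 runs; blue points are the 891 testis-high runs, red points the 349 muscle-high runs, grey points all others, and the line marks equal levels. Blue points crowd at 50% or more in muscle and over 80% in testis (472 runs), and 2 stand alone near the upper left corner.

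The 3 libraries of a tissue lay closer together in testis than in muscle within these runs, as they did over all runs. The SD between the libraries of a tissue had a median of 11.5 points in muscle and 2.56 points in testis, and it was larger in muscle in 804 members (90.2%). In muscle-high runs, where muscle is the highly methylated tissue, the medians were 7.25 points in muscle and 6.57 points in testis, and the SD was larger in muscle in 56.4%. Over all runs the medians were 3.90 and 1.36 points, with the larger SD in muscle in 79.6%. The 3 muscle libraries spanned more than 30 points in 254 testis-high runs (28.5%) and more than 50 points in 41 (4.60%), against 9.05% and 2.24% of all runs. The 3 testis libraries spanned more than 30 points in 12 (1.35%), near the 0.985% of all runs. The tissues stood at different levels in testis-high runs (52.8% in muscle and 88.9% in testis), and the runs were chosen by these levels. The part of level in the spread between libraries was not tested.

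Neighbouring CpGs of a run also differed more from each other in muscle. The SD between the CpGs of a run had a median of 19.8 points in muscle and 7.35 points in testis. Over all runs these medians were 9.70 and 4.25 points, and in muscle-high runs 15.4 and 10.4 points. This SD was larger in muscle in 88.8% of testis-high runs, 69.3% of muscle-high runs and 78.7% of all runs. Runs with at least 1 CpG under 20% and at least 1 over 80% in the same library numbered 223, 74 and 189 of the 891 in muscle 1, 2 and 3. These were 25%, 8.31% and 21.2% of the members, against 9.97%, 4.48% and 8.61% of all runs. In testis 1, 2 and 3 they numbered 20, 26 and 24 (2.24% to 2.92%), near the 2.39% to 2.61% of all runs. Muscle 2, the most deeply read muscle library, had the fewest of the muscle libraries. The parts of read depth and of level in this spread were not tested. In the 110 members with at least 100 reads per CpG in every library, the median SD between libraries was 10.2 points in muscle and 2.02 points in testis, and the median levels were 51.3% and 86.9%. In the 43 members with a library under 20 reads, these SDs were larger, with 5.32 points in testis.

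Whether the excess in testis held in a fish that played no part in the choice was examined by applying the limits to 2 fish and reading the third. With fish 1 held out, 998 runs were chosen, and in fish 1 they had a median difference of 31.5 points (quartiles 14.7 and 46.7). Of these, 816 (81.8%) differed by 10 points or more toward testis, against a background of 19.9% of all runs in this fish. With fish 2 held out, 1120 runs were chosen, with a median of 22.6 points in fish 2, and 877 (78.3%) reached 10 points against a background of 16.8%. With fish 3 held out, 1330 runs were chosen, with a median of 17.3 points in fish 3, and 872 (65.6%) reached 10 points against a background of 16.5%. The difference was above 0 in the held-out fish in 90.5%, 93.2% and 84.5% of the chosen runs, and in 64.5%, 67.2% and 61.7% of all runs. It was 10 points or more toward muscle in 28, 21 and 53 chosen runs. All runs include those that are unmethylated in both tissues, where a difference of this size has little room. Others stood too high in muscle for 10 points toward testis, with an upper quartile of 89.9% in muscle over all runs.

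In the held-out fish 2 and 3 the median difference was smaller than in the fish used to choose. The runs chosen on fish 1 and 2 had a median mean difference of 31.6 points in those fish and 17.3 points in fish 3. The median level of these runs in fish 3 was 68.3% in muscle and 88.0% in testis. The runs chosen on fish 2 and 3 did not show such a drop, with 29.1 points in those fish and 31.5 points in fish 1, where muscle stood at 51.8% and testis at 88.8%. The level in testis of the held-out fish was thus nearly the same in the 3 cases (88.0% to 88.8%), and the level in muscle was not (51.8% to 68.3%).

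CpGs beside the testis-high runs were also more methylated in testis. These lay in no testis-high run, but 486 of the 1341 within 1 kb belonged to other runs that had been scored and had not met the limits, so the set was in part shaped by the rule. Reads were 50 bp long, so a CpG more than 100 bp away lay on other reads. Whether those reads came from other DNA fragments was not examined. Between 100 and 250 bp from the nearest end of a run, 468 CpGs averaged 63.0%, 65.7% and 72.2% in muscle 1, 2 and 3 and 83.8%, 83.9% and 85.0% in testis 1, 2 and 3. All testis libraries lay above all muscle libraries, and the difference was 17.3 ± 4.05 points (SD, n = 3 fish). The difference was 9.34 ± 3.98 points between 250 and 500 bp (335 CpGs) and 5.0 ± 2.0 points between 500 and 1000 bp (538 CpGs). Beyond that it was 3.47 ± 1.33 points between 1 and 2 kb, 4.06 ± 1.41 points between 2 and 5 kb and 3.38 ± 1.0 points between 5 and 10 kb. In each of these bins every testis library exceeded every muscle library, for which the exact permutation test over libraries (two-sided) gave p = 0.1, and no smaller p is possible with 3 against 3. This test leaves out the pairing by fish, while the SDs here are over paired differences. The same separation, with the same p in this test, was present in each bin beside the other runs compared below. It was thus not particular to CpGs beside testis-high runs.

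The other runs were all scored runs that were not testis-high, so muscle-high runs were among them. For comparison, CpGs at 100 to 1000 bp from the other runs, and farther than that from any testis-high run, averaged 42.2% ± 0.70 in muscle and 43.9% ± 0.22 in testis. CpGs at 100 to 1000 bp from testis-high runs averaged 67.7% ± 3.64 in muscle and 78.0% ± 0.59 in testis (1341 CpGs). The difference was 13.3, 10.7 and 7.02 points in fish 1, 2 and 3 beside testis-high runs and 2.08, 1.91 and 1.17 points beside the other runs. The excess of the first over the second was 8.64 ± 2.69 points (SD, n = 3 fish), and the exact test over unpaired libraries gave p = 0.1. Between 1 and 2 kb this excess was 0.35 ± 0.86 points (exact p = 0.6), between 2 and 5 kb 0.92 ± 0.57 points (exact p = 0.2) and between 5 and 10 kb -0.25 ± 0.09 points (exact p = 0.3). These values do not compare like with like, since CpGs beside the other runs lay in no scored run. In the bins beyond 1 kb a CpG could also count on both sides. With scored runs left out on both sides, which was added after the data were seen, 855 CpGs remained within 1 kb of testis-high runs. Their difference was 12.9 ± 3.41 points (15.8, 13.9 and 9.16 in fish 1, 2 and 3), and the excess over CpGs beside the other runs was 11.2 ± 2.94 points (exact p = 0.1). This excess was 17.1 ± 4.45 points between 100 and 250 bp, 10.3 ± 3.04 between 250 and 500 bp and 3.93 ± 0.79 between 500 and 1000 bp. Between 1 and 2 kb it was 0.90 ± 0.97 points (exact p = 0.4), between 2 and 5 kb 2.07 ± 0.91 points (exact p = 0.1) and between 5 and 10 kb 0.36 ± 0.47 points (exact p = 0.4). The excess was thus largest next to the runs, and beyond 1 kb it exceeded the spread between fish in the bin from 2 to 5 kb alone. These sets still differed in level within 1 kb, with 65.1% in muscle beside testis-high runs and 42.2% beside the other runs. The part of level in the excess was not tested. Among CpGs whose mean over the 6 libraries was 50 to 95%, those of scored runs included, the difference was 13.5 points near testis-high runs. Over all CpGs at these levels, those of members and unplaced ones included, it was 6.15 points. Beside muscle-high runs the difference turned to the other side, with -13.3 ± 3.17 points between 100 and 250 bp and -5.70 ± 3.29 points between 250 and 500 bp. With CpGs joined up to 200 bp apart, so that the nearest neighbours became part of the runs, the difference at 100 to 1000 bp beside testis-high runs was 5.90 points in place of 10.4.

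The share of CpGs called by the logistic regression fell with distance. It called 48.3% of the CpGs between 100 and 250 bp hyper-methylated in testis, 36.1% between 250 and 500 bp, 20.4% between 500 and 1000 bp, 17.9% between 1 and 2 kb, 16.3% between 2 and 5 kb and 14.95% between 5 and 10 kb, where the background over all CpGs was 11.7%. Beside the other runs it called 8.91%, 6.86%, 9.44%, 14.6%, 15.6% and 16.8% in the same bins, so from 2 kb on the shares were close and in the last bin lower beside testis-high runs. Over 100 to 1000 bp it called 457 of 1341 CpGs (34.1%) toward testis and 56 (4.18%) toward muscle, the latter against a background of 4.26%. Without the CpGs of scored runs it called 350 of 855 (40.9%) toward testis, against 8.47% beside the other runs. Among CpGs whose mean over the 6 libraries was 50 to 95%, a limit added after the data were seen, the share toward testis was 44.1% near the runs against a background of 20.6%. The backgrounds over all CpGs hold unplaced CpGs (146271 of 475516) and those of members, while CpGs beside runs lie on linkage groups alone. The regression treats each read as an independent observation. limma, which estimates the spread between libraries, was used with the same limit of 15 points. It called 0 of the 1341 CpGs in either direction at an adjusted p under 0.01, as it did over all CpGs. The looser limit was an unadjusted p under 0.05 in limma, again past 15 points. There 195 of the 1341 CpGs (14.5%) were higher in testis and 34 (2.54%) in muscle, against 4.42% and 2.09% of all CpGs. With fish as a block these were 192 (14.3%) and 36 (2.68%), against 4.24% and 2.05%. The logistic regression with fish as a block called 452 toward testis (33.7%, background 11.6%) and 56 toward muscle (4.18%, background 4.19%).

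**Figure D3:**
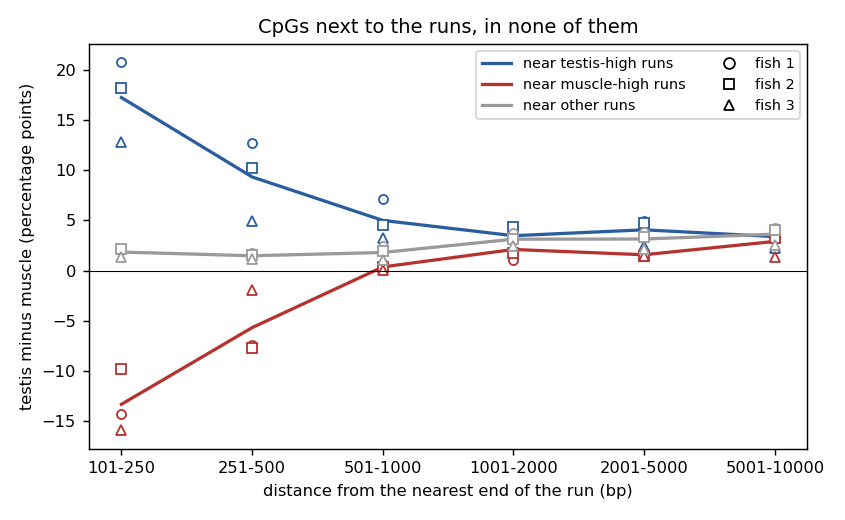
Difference in methylation, testis minus muscle in percentage points (y axis), of CpGs in 6 bins of distance in bp from the nearest end of a run (x axis), for testis-high runs (blue), muscle-high runs (red) and other runs (grey, muscle-high runs among them). Lines are means of 3 fish and open symbols the single fish, and the blue set holds CpGs of scored runs that were not testis-high. The blue line falls from 17.3 points between 100 and 250 bp to 3.47 points between 1 and 2 kb, where the grey line stands at 3.12.

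Neighbours did not follow every run. Of the 891 testis-high runs, 341 (38.3%) had a covered CpG at 100 to 1000 bp that lay nearest to them. In 137 of these (40.2%) the mean of these CpGs was higher in testis in all 3 fish, in 61 (17.9%) by 10 points or more in each fish, and in 26 (7.62%) it was higher in muscle in all 3 fish. Such shares per run were not taken beside the other runs, so they stand without a background. Of single CpGs at 100 to 1000 bp, 23.2% were higher in testis in all 3 fish beside testis-high runs. Beside the other runs 14.1% were.

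Testis-high runs were less frequent among runs with many CpGs, and their CpGs were more widely spaced than over all runs. They had a median of 6 CpGs with quartiles of 5 and 7, as had muscle-high runs. All runs had the same median with quartiles of 5 and 8. The median span was 112 bp in testis-high runs, 114 bp in muscle-high runs and 106 bp over all runs. The median distance between neighbouring CpGs of a run was 20.4 bp in testis-high runs, 21.8 bp in muscle-high runs and 17.2 bp over all runs. Within 1 kb around the middle of a run, the files listed a median of 9 CpGs for both kinds and 12 over all runs. The share of runs that were testis-high was 5.22% among runs of 5 CpGs, 4.50% of 7, 3.55% of 10, 1.65% of 12 and 0.53% of 14. The members carried 801 CpGs read on both strands (13.7%), against 12.8% in all runs. These features were not tested, since runs are not replicates. All runs include those under 20% in both tissues, which cannot meet the limits. The part of such runs in these contrasts was not tested.

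Every linkage group held testis-high runs. The share of its runs that were testis-high lay between 2.38% on LG7 (24 of 1007) and 6.44% on LG22-25 (56 of 870), with 6.08% on LGx and 5.72% on LG24. On all 24 linkage groups they outnumbered the muscle-high runs, most closely on LG11 (26 against 24) and by the widest ratio on LG15 (38 against 5). Their median difference by linkage group lay between 28.3 points (LG4) and 38.8 points (LG19). Within 1 Mb of the first or last listed CpG of a linkage group lay 119 members (13.4%), against 12.9% of all runs.

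The 10 members with the largest mean difference had 5 to 7 CpGs, and several of them rested on few reads. The largest was on LG19 from 23041909 to 23042022. Its 5 CpGs averaged 1.76%, 4.97% and 12.8% in muscle 1, 2 and 3 and 76.7%, 93.8% and 92.1% in testis 1, 2 and 3, with at least 32 reads at every CpG. The muscle libraries were all low and the testis libraries all high, with a difference of 81.0 ± 7.13 points (SD, n = 3 fish). One CpG, 12 bp from the first, was at 45.7% in testis 1 and at 100% and 97.5% in testis 2 and 3, and at 0% in all muscle libraries.

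The next, on LG2 from 22394058 to 22394101, averaged 4.73%, 13.9% and 2.41% in muscle 1, 2 and 3 and 83.9%, 74.7% and 90.1% in testis 1, 2 and 3, with at least 46 reads at every CpG. These 2 were the only members under 20% in muscle and over 80% in testis, and they also had the largest smallest difference over the fish, 74.9 and 60.7 points. The third, on LG19 from 4181914 to 4181947, averaged 23.0%, 3.40% and 37.7% in muscle and 89.6%, 98.9% and 80.4% in testis. Here the muscle libraries did not resemble each other: in muscle 1 the first CpG was at 100% and the next at 5%, with 19.8 reads per CpG.

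The fourth, on LG11 from 18897127 to 18897169, had 13.6%, 3.70% and 69.2% in muscle and 94.3%, 98.9% and 95.8% in testis. Its difference was 95.2 points in fish 2 and 26.6 points in fish 3, and a CpG in it had 10 reads in a library. The sixth, on LG7 from 16105663 to 16105704, was at 0% at all 5 CpGs in muscle 3, where it had 11 reads per CpG, and at 36.0% and 36.8% in muscle 1 and 2. In testis it had 92.7%, 78.9% and 94.1%. The other 5 of the 10 largest, on LG18-21, LG24, LG15, LG19 and LG1A, had mean differences of 61.3 to 64.6 points.

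**Figure D4:**
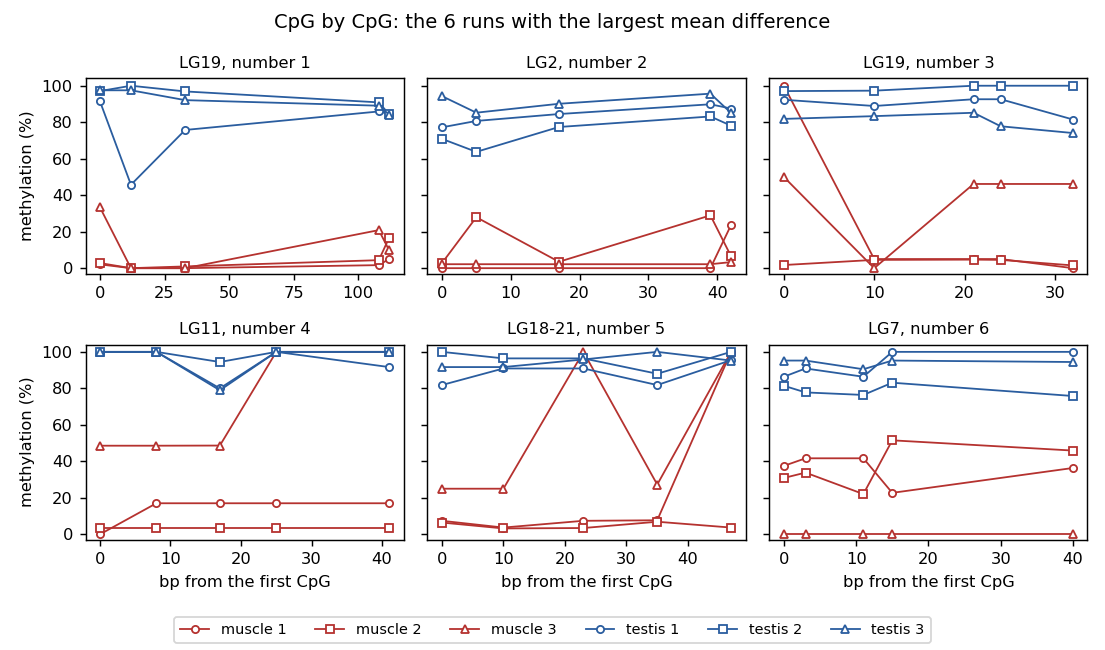
Methylation (percent, y axis) of each CpG against its distance in bp from the first CpG of the run (x axis), for the 6 testis-high runs with the largest mean difference; red lines are muscle and blue lines testis libraries, with 1 symbol per fish. In the first 2 runs the muscle lines stay under 34% and the testis lines over 45%, and in the third to the fifth single muscle lines reach 100%.

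After these 2, the members with the largest smallest difference over the fish were on LG20, LG19 and LG24. The run on LG20 from 814698 to 814734 (6 CpGs) had 23.4%, 35.8% and 32.1% in muscle and 88.9%, 92.9% and 90.9% in testis, with a smallest difference of 57.1 points. The 2 CpGs nearest to it at 100 to 1000 bp averaged 11.3% in muscle and 96.8% in testis. The run on LG19 from 15892803 to 15892918 (7 CpGs) had 34.6%, 26.2% and 31.1% in muscle and 90.5%, 93.6% and 89.6% in testis. The run on LG24 from 2364157 to 2364236 had 37.1%, 13.7% and 32.3% in muscle and 88.7%, 82.5% and 88.2% in testis. In these 3 runs the highest muscle library lay far below the lowest testis library. In all, 152 members differed by more than 30 points in each fish and 7 by more than 50 points. These were 0.738% and 0.034% of all runs. Every run past these values meets the rule, so nothing is read from these counts.

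Among the named members with more CpGs, the run on LG8 from 16934356 to 16934532 was the largest of that linkage group, with 11 CpGs at 30.2%, 30.4% and 43.6% in muscle and 93.5%, 95.5% and 94.8% in testis. A single CpG at 100 to 1000 bp from it stood at 8.20% in muscle and 94.3% in testis. The run on LGx from 15296538 to 15296727, also with 11 CpGs, had 16.9%, 32.3% and 47.2% in muscle and 90%, 94.5% and 90.8% in testis, and all 11 CpGs were higher in testis in each fish. The 2 members of 14 CpGs lay on LG4 from 24515033 to 24515222 and on LGx from 16836353 to 16836562, with mean differences of 21.5 and 21.0 points. A run of 13 CpGs on LG6 from 1060266 to 1060573 had 38.3%, 64.5% and 57.6% in muscle and 93.4%, 88.8% and 90.5% in testis. The largest member of each linkage group had a mean difference between 48.5 points (LG14) and 81.0 points (LG19).

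Testis-high runs mostly stood alone, and a few lay close together. The median distance to the next testis-high run was 175834 bp, 89 of the 891 (9.99%) had one within 10 kb, and 29 within 1 kb. For the 349 muscle-high runs the median distance to the next of their kind was 430003 bp. Of these, 14 (4.01%) had one within 10 kb and 4 within 1 kb. The part of the number of runs in these distances was not tested. Of 5236 windows of 100 kb with a run, 769 held a member. In 669 of these there was 1, and 100 held 2 or more. A muscle-high run lay within 10 kb of 10 testis-high runs (1.12%).

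The window with the most members lay on LG6, where 7 testis-high runs stood between positions 912456 and 937105. They averaged 46.2% in muscle and 86.3% in testis, with mean differences of 28.9 to 52.7 points. The second of them, from 914402 to 914480, had 28.9%, 54.9% and 20.9% in muscle and 90.7%, 82.9% and 89.2% in testis. Another, from 918743 to 918919, had 32.6%, 6.88% and 28.9% in muscle and 68.1%, 69.1% and 72.8% in testis. The next, from 927810 to 927955, was even between the fish, with differences of 32.7, 30.1 and 29.7 points. The 16 other runs of this window had mean differences of -6.81 to 18.4 points, 5 of them with testis higher in all 3 fish. Between the first and the last member lay 9 of these 16, of which 3 were under 10% in both tissues, so the stretch was not uniform.

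**Figure D5:**
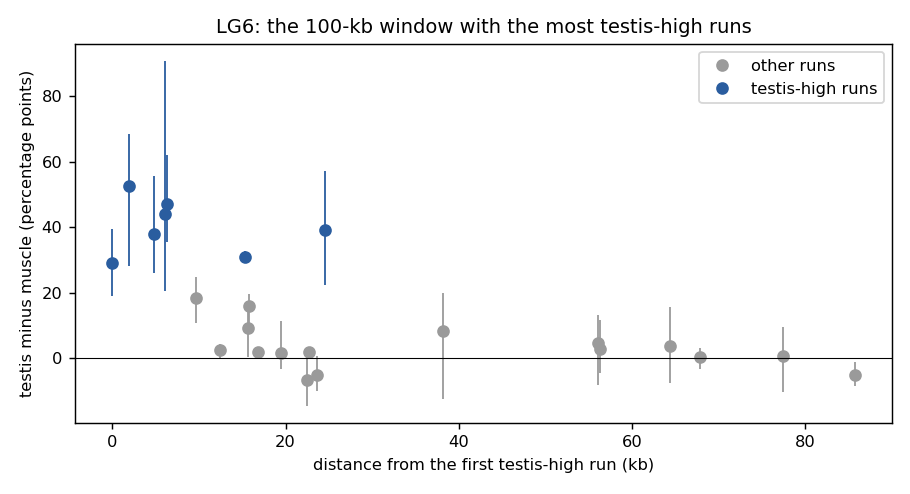
Difference in methylation, testis minus muscle in percentage points (y axis), of the 23 runs in the LG6 window against their distance in kb from the first testis-high run (x axis); dots are means of 3 fish and bars run from the lowest to the highest fish. The 7 testis-high runs (blue) lie at 28.9 to 52.7 points and the 16 others (grey) at -6.81 to 18.4 points.

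On LG2, 3 testis-high runs lay within 475 bp, between 22393791 and 22394265, and the run with 75.9 points was the middle one. The first had 24.6%, 37.6% and 47.6% in muscle and 86.3%, 77.5% and 82.2% in testis, and the third had 22.8%, 68.7% and 57.4% in muscle and 94.7%, 95.2% and 95.7% in testis. The 24 covered CpGs at 100 to 1000 bp that lay nearest to the third averaged 64.8% in muscle and 96.1% in testis. On LGx, 2 of the 4 members of a window lay between 15840857 and 15841504, with differences of 31.6 and 45.4 points. The second of these had 19.3%, 17.1% and 30.5% in muscle and 67.7%, 63.6% and 71.8% in testis, and at least 102 reads at every CpG. On LG15, the member from 24846308 to 24846416 had 8 CpGs at 28.6%, 27.8% and 29.2% in muscle and 60.9%, 58.6% and 61.2% in testis, so that the fish differed by less than 3 points in either tissue.

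At the limit of 20 points the members merged into the other runs. The 3 members just inside had 60.1% to 83.2% in muscle and 86.7% to 98.7% in testis, and the 3 runs just outside had 56.4% to 85.3% and 74.0% to 98.7%. There were 325 runs with 10 points or more in all 3 fish that averaged under 20 points. A further 376 runs averaged 20 points or more but were under 10 points in a fish, and in 132 of them a fish had the higher level in muscle.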

How the data were processed

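RRBS reads (50 bp, single end) were trimmed with Trimmomatic, aligned to dicLab v1.0c with BSMAP 2.90 and called with methratio. The files the authors deposited give the read count at each cytosine and the percent of it read as C. Cytosines were kept where all 6 libraries had at least 10 reads and none exceeded its 99.9th percentile (528301), and strands were summed (475516 CpGs). Of these CpGs, 146271 were unplaced. They lay in no scored run but entered the fit and the values over all CpGs, as did the CpGs of members. For calls, counts were scaled to the largest median. Each CpG was tested by a likelihood ratio in a logistic regression on tissue and called past 15 points (pooled reads) with p under 0.01 after Benjamini-Hochberg adjustment, which replaced the study's SLIM. Groups came from the sample titles.

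The study's library statistics list the libraries of both tissues by fish number, and these numbers were taken to pair a muscle with a testis library. Deviations from the tissue mean had correlations of 0.174, 0.214 and 0.192 within fish and -0.117 to -0.082 between different fish. The deviations of the 3 libraries of a tissue sum to 0 at each CpG. The negative values thus follow from the positive ones and add nothing to them. The pairing itself rests on the fish numbers.

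The members, lists and tests were chosen with earlier results of these data known. Regions named were the 10 largest and the 5 largest by their smallest difference, the 5 with the most CpGs, the largest of each linkage group, 3 on each side of the limit and the 5 windows with the most members. Other runs named inside these windows were chosen after their values were seen. Alternatives were other limits on coverage, joining and level, single strands, limma on log2 of methylated over unmethylated reads (0.5 added), fish as a block, and each fish left out. Scripts were tested on simulated data. The deposited expression tables (values per gene and tissue) and the authors' comparison (fold changes and p-values) were not used here. Tools were limma 3.58.1 under R 4.3.3, and scipy 1.17.1, pandas 2.3.3, numpy 2.4.6 and matplotlib 3.10.9 under Python 3.11.15.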

Additional observations from a re-analysis of the deposited data

How the results depend on the processing

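The number of testis-high runs (891, or 4.32% of the runs) lay between 646 and 1079 with a minimum of 5 or 20 reads, no upper limit, other joining distances and levels from summed reads. With a minimum of 30 reads it was 469, or 3.78% of 12414 runs. On the forward strand alone 232 runs met the limits (2.47% of 9388) and on the reverse strand alone 2.63% of 9535. The share of runs thus fell as well as the number, and the cause was not tested. Leaving out a fish gave 998 to 1330 runs, or 4.84% to 6.46%. The median difference of the members stayed between 31.0 and 32.3 points over the limits on reads, joining distances and summed reads. Beside the runs the mean difference was 8.41 to 9.64 points with a fish left out. Of the CpGs called toward testis there (457), 287 were left with a limit of 25 points (21.4%, against 5.61% of all CpGs). A minimum of 20 reads gave 291 (38.0%) and 30 reads gave 156 (35.0%), of fewer CpGs, and leaving out a fish gave 447 to 638. With fish as a block, which pairs the libraries, the number was 452, and the block moved no count by over 1.5 times. Scaling every CpG to at most 30 reads per library, which was added after the data were seen, gave 389 (29.0%, against 9.10% of all CpGs). Each run counted once, also added then, gave a mean difference beside the runs of 12.2 points, and leaving out CpGs of scored runs 12.9 points with 350 calls. limma called 0, and 0 with fish as a block. Depth limits single runs, since some rest on 10 reads at a CpG.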

Other observations

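CpGs inside the span of a testis-high run that failed the coverage limits in a library, and so took no part in the choice, were read where both tissues of a fish listed them. In fish 1, 92 such CpGs averaged 52.2% in muscle and 84.2% in testis, in fish 2, 183 averaged 56.4% and 82.2%, and in fish 3, 103 averaged 59.9% and 81.2%. The mean differences were 32, 25.7 and 21.3 points, in the same order of the fish as in the members. Their reads overlap those of the CpGs that were used, so they are not separate evidence.

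The strands gave like values within the members. On forward-strand cytosines 856 members had a value, with a median difference of 32.3 points. On the reverse strand 849 had one, with 31.4 points. The members were chosen on levels that used the cytosines of both strands, so the rule largely fixes these differences. Of the CpGs of members 13.7% were read on both strands, so the strands for the most part covered different CpGs. Nothing is read from their likeness.

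Neighbours did not follow the largest members of LG17, LG13 and LG1B or a member of the LG6 window. On LG17 from 21759149 to 21759192 the run had 0%, 87.0% and 33.3% in muscle and 98.7%, 98.0% and 89.1% in testis, while the 8 CpGs nearest to it at 100 to 1000 bp averaged 95.9% in muscle and 95.7% in testis. On LG6 from 937025 to 937105 the run averaged 56.7% in muscle and 95.7% in testis, and 6 such CpGs, which formed a scored run that was not a member, averaged 18.4% and 13.3%. The largest member of LG13 averaged 28.4% in muscle and 87.8% in testis, and 2 such CpGs averaged 99.6% and 94.4%. That of LG1B averaged 16.3% and 77.6%, and 1 such CpG stood at 83.0% and 84.8%.

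Across the 891 members, the run levels of the testis libraries had correlations of 0.858 to 0.867 with each other, and those of the muscle libraries 0.406 to 0.554. Each muscle library correlated more closely with every testis library (0.527 to 0.658) than the muscle libraries 1 and 3 did with each other. Muscle 1 and 2, at 0.554, were closer than muscle 1 was to testis 2 and 3 (0.528 and 0.527). Over all runs the muscle libraries had 0.935 to 0.955 with each other and 0.934 to 0.958 with the testis libraries. The members were chosen by their difference and the pairs share libraries, so these values are a description.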
